A study of Marchantia polymorpha with 12 samples.

Results

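MpPOD80 (Mp5g06870), MpGH17.15 (Mp6g00360) and MpPEX11b (Mp1g26710) are 3 of the 19441 genes counted in the liverwort Marchantia polymorpha. They were chosen by name because an earlier look at these counts found their change in mutants of MpE(z)1 to differ between 2 experimental sets. The values that chose them were their counts in all 4 groups, so their levels and fold changes are given as a description, with no test. By p-value for that difference they stood 9th, 20th and 26th of 13244 genes tested, and 1st, 2nd and 5th of the 2620 tested genes with a symbol. MpABCG31 and MpCYP829-like16 stood between them, and MpPOD73, next after MpPEX11b, had a difference of -1.59 on the log2 scale.

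Polyadenylated RNA of 14-day thalli, the flat haploid body of the plant, was sequenced from 12 libraries with a directional kit. The groups were Mpknox2-1 Mpez1-1 double mutants and their Mpknox2-1 controls in set 1, and Mpknox2-1 Mpez1-2 double mutants and their Mpknox2-1 controls in set 2, with 3 libraries each. Every library thus carried Mpknox2-1, a mutation of the homeodomain gene MpKNOX2, and no library without it was analysed here. Each set held its own controls and a single Mpez1 allele, so allele and set cannot be told apart. The column headings of the set 2 tables also carry the words Tak2 and G4, which those of set 1 lack and which the labels do not explain. Nothing in the labels says whether both sets descend from 1 line.

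MpE(z)1 encodes the catalytic subunit of PRC2, a Polycomb complex that places methyl groups on lysine K27 of histone H3 and keeps many developmental genes silent in plants. The 3 genes belong to different gene families. Class III peroxidases such as MpPOD80 are secreted enzymes that oxidise phenolic compounds with hydrogen peroxide and act on cell wall polymers in flowering plants. GH17 enzymes such as MpGH17.15 are glucan endo-1,3-beta-glucosidases, a family whose flowering plant members cut callose in cell walls and at plasmodesmata. PEX11 proteins, the family MpPEX11b is named for, shape the peroxisome membrane and promote the elongation and division of peroxisomes in yeast, animals and plants.

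Gene counts ranged from 7019900 to 12098548 per library. The targeted gene MpE(z)1 (listed as MpCXC3) averaged 14.4 ± 1.96 CPM (sense-strand counts scaled to library size) in Mpez1-1 thalli and 30.2 ± 4.27 CPM in their controls. In set 2 it averaged 19.8 ± 1.56 CPM in Mpez1-2 thalli and 35 ± 2.81 CPM in controls (SD, n = 3 libraries each). MpKNOX2 (listed as MpHD21) summed to 30 counts in Mpez1-1 thalli and 2 in their controls, and to 15 in Mpez1-2 thalli and 0 in their controls. All 7 thallus markers examined, for air chambers, gemma cups, rhizoids and oil bodies, had counts in all 12 libraries. A further rhizoid marker that was planned, MpLRL, was not among them. Of 6 germ cell markers, 4 had counts in all 12, and so did 3 of 4 genes listed as sporophyte markers. The tables list 146 V chromosome identifiers, of which 21 to 34 had counts per library, and 0 of the U chromosome.

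The sets themselves differed widely. Among genes tested with edgeR's quasi-likelihood test, 55.0% passed at an adjusted p under 0.05 between the set 1 and the set 2 controls, although both carry the same genotype label. Between Mpez1-1 and Mpez1-2 thalli 62.7% passed. Within sets the share was 50.6% for Mpez1-1 against its controls and 37.8% for Mpez1-2 against its own. The difference between both changes (set 1 change minus set 2 change, on the log2 scale) passed for 23.0%, with 12.3% higher and 10.7% lower. The balance of directions rested on single libraries: 1095 genes were higher and 1851 lower without set 1 control replicate 1, 1195 and 1807 without set 1 control replicate 3, and 1509 and 2332 without Mpez1-1 replicate 1, against 1631 and 1419 with all libraries. The median of all genes was then -0.095, -0.094 and -0.097 on the log2 scale. These shares are the background for the counts of genes below. How many of all genes had groups without overlap was not counted, so separate groups of a named gene are not read as unusual. In these bulk samples fewer cells of a type and less RNA per cell cannot be told apart.

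MpPOD80 was close to undetected in Mpez1-1 thalli and kept most of its level in Mpez1-2 thalli. Its counts were 1, 0 and 1 in the Mpez1-1 libraries, against 52, 73 and 56 in the set 1 controls. In set 2 they were 142, 164 and 167 in the Mpez1-2 libraries, against 255, 298 and 237 in the controls. No library of either double mutant reached the lowest library of its own controls. The gene was lower in both double mutants, and the sets diverged in the depth of the loss.

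In CPM, MpPOD80 averaged 0.0966 ± 0.0842 in Mpez1-1 thalli and 6.0 ± 0.808 in set 1 controls (SD, n = 3 each). The pooled ratio of 2 to 181 counts was 0.0150, with an exact 95% interval of 0.00180 to 0.0549 that covers counting error only. In set 2 it averaged 16.0 ± 0.219 CPM in Mpez1-2 thalli and 24.1 ± 3.36 CPM in controls, a ratio of means of 0.664. Any Mpez1-2 library had between 0.568 and 0.754 of the level of any control library of its set. The fitted log2 fold changes were -5.84 in set 1 and -0.54 in set 2, and the difference was -5.28. The value for set 1 depends on the prior count of the fit, because so few reads remained.

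The controls differed as well. MpPOD80 in set 1 controls stood at 0.249 of its level in set 2 controls, with single-library ratios of 0.182 to 0.302. The log2 difference was -2.0, and 765 of the 13244 genes differed by more. All 4 groups were thus separate for MpPOD80, with set 2 controls highest, then Mpez1-2, then set 1 controls, then Mpez1-1. Of all genes 55.0% passed edgeR's test between controls and 62.7% between double mutants, so differences between these groups were common. The double mutants had 2 counts in Mpez1-1 against 473 in Mpez1-2, where the ratio of pooled CPM was 0.00561 (exact 95% interval 0.000678 to 0.0204).

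Counts this close to absence in Mpez1-1 alone were looked for among all genes. With thresholds set after the counts were seen, which MpPOD80 met, 3 of 19441 genes had at most 3 counts summed over the Mpez1-1 libraries and at least 100 summed over each other group. Many of the 19441 could not reach 100 counts, and no such search was made for another group, so this is a description only. They were MpPOD80, the peroxidase gene MpPOD90 and Mp5g05430, to which the reference used here gives no symbol.

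MpGH17.15 had the opposite arrangement of sets, with far more transcript in both groups of set 1. Its counts were 4864, 5134 and 4686 in Mpez1-1 libraries, against 5134, 5864 and 5155 in set 1 controls, which were sequenced more deeply. Scaled to library size these were 659, 609 and 723 CPM in Mpez1-1 thalli, against 500.3, 523 and 591 CPM in set 1 controls. The groups did not overlap, though the lowest Mpez1-1 library was close to the highest control.

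In set 2 MpGH17.15 had 458, 527 and 550 counts in the Mpez1-2 libraries, against 1537, 1211 and 1212 in the controls. In CPM it averaged 51.9 ± 0.564 in Mpez1-2 thalli and 120.3 ± 14.9 in set 2 controls (SD, n = 3 each), a ratio of 0.431. The highest single-library ratio was 0.474 and the lowest 0.373. In set 1 the means were 664 ± 57.1 CPM in Mpez1-1 thalli and 538 ± 47.0 CPM in controls, a ratio of 1.23. Within its own set, then, the gene was somewhat higher in Mpez1-1 and clearly lower in Mpez1-2.

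On the log2 scale MpGH17.15 changed by 0.31 in set 1 and by -1.17 in set 2, a difference of 1.52. Its level in set 1 controls was 4.47 times that in set 2 controls, with single-library ratios of 3.64 to 5.36. Between the double mutants the ratio was 12.8, with 11.7 to 14.1 for single libraries. The order of groups was Mpez1-1, set 1 controls, set 2 controls and Mpez1-2, and each neighbouring pair was separate. Of all genes 50.6%, 55.0% and 37.8% passed edgeR's test for these pairs in that order, so differences between these groups were common. The step across sets between controls, 2.16 on the log2 scale, was larger than either change within a set.

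The summed level of the 7 thallus markers was also higher in set 1 than in set 2, and that difference lay mostly in MpC1HDZ. It was 376 to 390 CPM in Mpez1-1 thalli and 271 to 281 CPM in set 1 controls, and 165 to 177 CPM in Mpez1-2 thalli and 172 to 192 CPM in set 2 controls. MpC1HDZ, a homeodomain gene known for oil body cells, was at 259 ± 1.87 CPM in Mpez1-1 and 149 ± 5.22 CPM in set 1 controls. In set 2 MpC1HDZ had 60.0 ± 6.22 CPM in Mpez1-2 and 41.5 ± 5.04 CPM in controls. Without it the other 6 markers summed to 119 to 129 CPM in Mpez1-1 and 118 to 130.2 CPM in set 1 controls, and to 105 to 119 CPM in Mpez1-2 and 133 to 144 CPM in set 2 controls. Of the 7, 2 were higher and 3 lower in set 1 than in set 2 controls by edgeR. Of all genes 27.1% were higher and 27.9% lower there. MpSYP12B, an oil body syntaxin gene, was at 12.9, 4.79, 10.5 and 7.18 CPM in Mpez1-1, set 1 control, Mpez1-2 and set 2 control thalli. Germ cell markers summed to 65.6 to 78.5 CPM in Mpez1-1, 73.9 to 77.6 in set 1 controls, 101 to 111 in Mpez1-2 and 122 to 125 in set 2 controls. Most of that sum was MpRKD, at 47.8 ± 8.30 CPM in Mpez1-1 and 66.1 ± 2.46 CPM in set 1 controls, and 89.6 ± 6.71 CPM in Mpez1-2 and 113 ± 1.33 CPM in set 2 controls. Of 5 germ cell markers tested in set 1, 3 rose and MpRKD fell by edgeR, where 26.5% of all genes rose and 24.1% fell. Of 4 tested in set 2, 1 rose and MpRKD fell by edgeR, where 20.4% of all genes rose and 17.4% fell. MpBHLH20, among the 3 that rose, had 0 counts in all set 1 controls and passed the count filter through Mpez1-1 alone. MpR2R3-MYB1 rose in both sets, by 1.87 and 2.60 on the log2 scale. The part of these tissues in the levels of the 3 genes was not tested.

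MpPEX11b was lower in Mpez1-1 thalli than in their controls and overlapped with controls in set 2, and its difference between sets was the smallest of the 3 genes. It had 1292, 1354 and 988 counts in the Mpez1-1 libraries, against 3419, 3389 and 2767 in set 1 controls. In set 2 the counts were 1777, 2136 and 2201 in Mpez1-2 libraries, against 2119, 2009 and 2196 in controls. Set 1 groups were far apart, while set 2 groups overlapped once scaled, since the lowest Mpez1-2 library (198.7 CPM) was below the highest control (199.6 CPM).

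Means of MpPEX11b were 163 ± 11.4 CPM in Mpez1-1 thalli and 318 ± 15.4 CPM in set 1 controls (SD, n = 3 each), a ratio of 0.513. In set 2 they were 206 ± 6.77 CPM in Mpez1-2 thalli and 192 ± 6.30 CPM in controls, a ratio of 1.07. The log2 fold changes were -0.96 and 0.15, and their difference was -1.07. The gene's level in set 1 controls was 1.65 times that in set 2 controls. In order, set 1 controls were highest, Mpez1-2 and set 2 controls came next without separating, and Mpez1-1 was lowest. Between the double mutants the level in Mpez1-1 was 0.789 of that in Mpez1-2, less than the difference between controls and in the other direction.

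**Figure D1:**
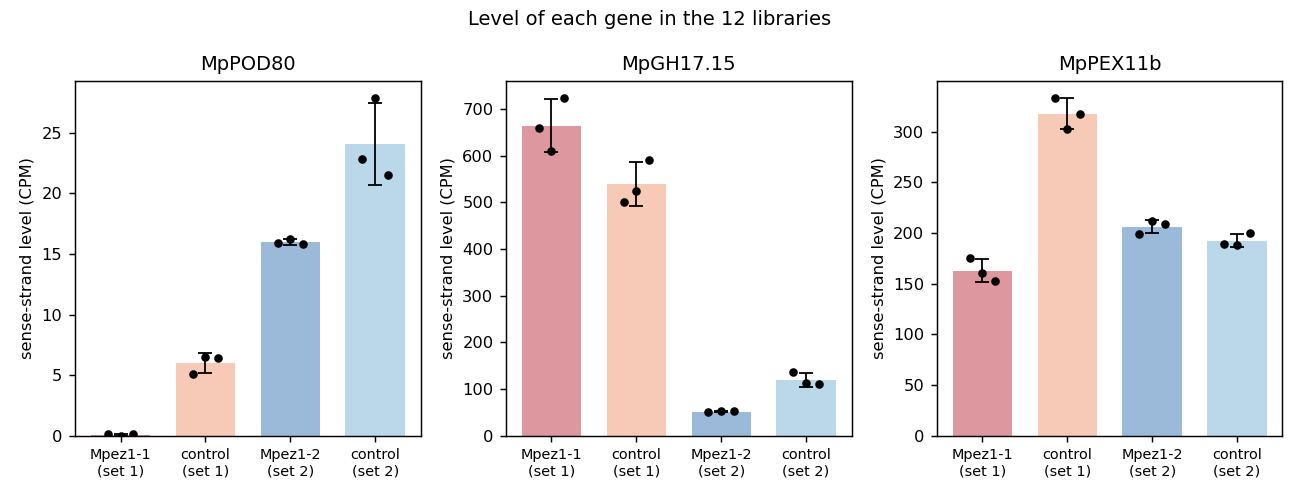
Sense-strand level in CPM of MpPOD80, MpGH17.15 and MpPEX11b, with bars for the mean of 3 libraries, whiskers for the SD and points for single libraries. MpPOD80 is near 0 in Mpez1-1, MpGH17.15 is high in both groups of set 1, and MpPEX11b is highest in set 1 controls.

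The 3 genes shared no single pattern. Over the 12 libraries the log2 CPM of MpPOD80 and MpGH17.15 had a Pearson r of -0.76. For MpPOD80 and MpPEX11b r was 0.37, and for MpGH17.15 and MpPEX11b 0.15. These values describe 4 groups of 3 libraries and carry no p-value. Among all genes tested for the difference, 45 had a larger absolute value than MpPOD80, 1093 than MpGH17.15 and 1895 than MpPEX11b. Replicates of MpGH17.15 and MpPEX11b had coefficients of variation of 1.09% to 12.4% and 3.28% to 7.02% in the 4 groups.

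**Figure D2:**
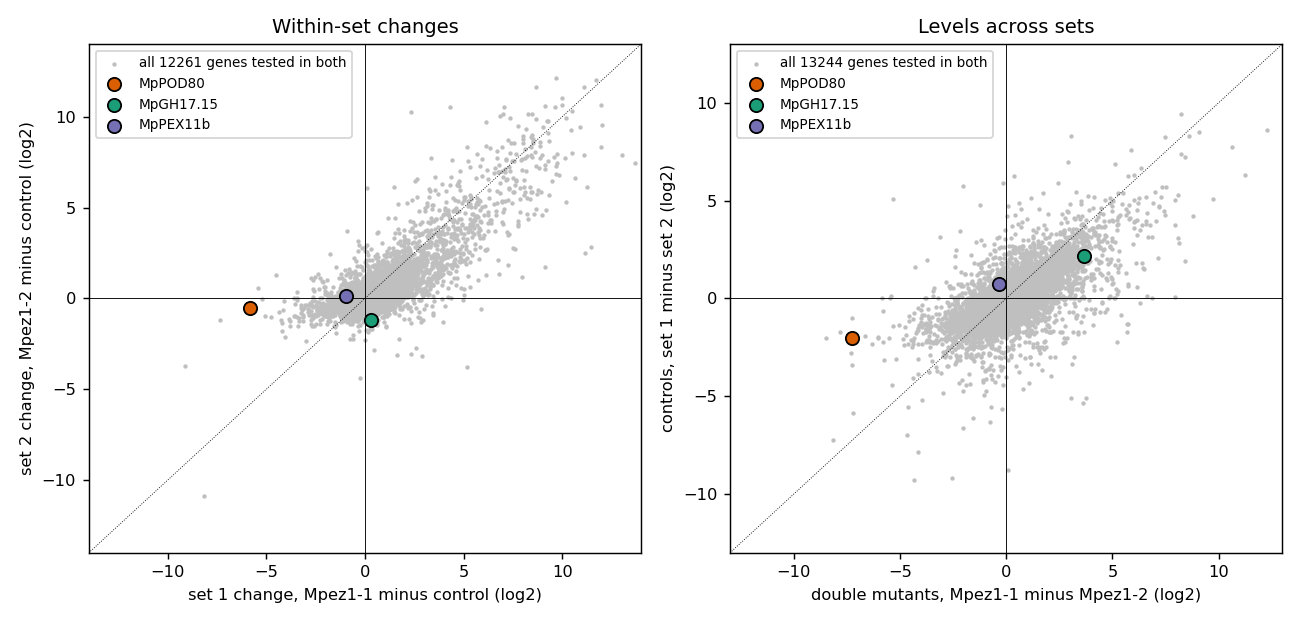
Log2 fold changes of all tested genes (grey) and the 3 named genes (coloured), within sets in the left panel and across sets in the right panel; the dotted line marks equal values. MpPOD80 lies far left at -5.84 and -0.54, MpGH17.15 at 0.31 and -1.17, and MpPEX11b at -0.96 and 0.15.

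The second table of each library, read as the opposite strand, held little of any of them. MpPOD80 had 6 opposite-strand counts in all 12 libraries, MpGH17.15 had 186 and MpPEX11b had 129. That was 0.413%, 0.509% and 0.50% of both strands together, below the 1.66% to 2.17% over all genes of a library. For MpGH17.15 the opposite-strand sums were 64 in Mpez1-1 and 103 in set 1 controls, and 4 in Mpez1-2 and 15 in set 2 controls. For MpPEX11b they were 17 in Mpez1-1 and 59 in set 1 controls, and 22 in Mpez1-2 and 31 in set 2 controls. Opposite-strand counts were low where sense counts were low, and the share stayed between 0.260% and 0.634% in these 8 group sums. Reads of the sense strand placed on the wrong strand cannot be told apart from antisense transcripts here.

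Other class III peroxidases were examined next, leaving out MpPOD80. Of 163, 120 could be tested for the difference between sets, and 7 were higher and 39 lower (38.3% called, against 23.0% of all genes tested). Their median difference was -0.81 on the log2 scale, against 0.00 over all genes. Genes low in set 1 entered this count through set 2, where they are high, so it describes the genes that passed the count filter and not the family. Among the 81 tested in every comparison, a restriction chosen after the values were seen, 7 were higher and 30 lower, with a median of -0.69. This restriction does not remove the limit, since a gene can pass in set 1 through its controls alone. MpPOD90 did so, with 3 counts in Mpez1-1 and 167 in set 1 controls. Without any 1 library, 4 to 8 were higher and 30 to 44 lower. Within set 1, 25 of 81 tested rose and 27 fell, with a median of -0.02. Within set 2, 56 of 119 rose and 13 fell, with a median of 0.49 against 0.00 over all genes. Of all genes 26.5% rose and 24.1% fell in set 1, and 20.4% rose and 17.4% fell in set 2.

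Peroxidase levels across sets leaned the same way as MpPOD80. Of the 120, 8 were higher and 73 lower in set 1 controls than in set 2 controls, with a median of -1.11 against -0.03 over all genes. In Mpez1-1 against Mpez1-2 thalli 5 were higher and 97 lower, with a median of -1.98 against -0.03 (85.0% called, against 62.7%). Of all genes 27.1% were higher and 27.9% lower between controls, and 31.0% higher and 31.7% lower between double mutants. The same limit on genes that passed through set 2 holds here, and among the 81 tested in every comparison the medians were -0.93 between controls and -1.64 between double mutants. Genes that passed through set 1 controls alone remain among those 81.

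The 4 peroxidase genes with the largest called differences all had 0 to 2 counts in each Mpez1-1 library. They were ranked by the size of the difference, which favours genes near 0 in a group, so this is a description. MpPOD74, MpPOD104 and MpPOD105 were too low to test in set 1 and entered through groups where they are higher. MpPOD90 had 1, 0 and 2 counts in Mpez1-1 libraries, against 48, 60 and 59 in set 1 controls, and 78, 80 and 89 in Mpez1-2 libraries, against 77, 130 and 79 in set 2 controls. Its pooled ratio in set 1 was 0.0243 (95% counting interval 0.00497 to 0.0724). In set 2 its log2 fold change was -0.01 (edgeR adjusted p = 0.967). The difference between sets was -5.17 (edgeR adjusted p = 0.000154). Like MpPOD80, MpPOD90 was thus nearly absent in Mpez1-1 only, and its set 1 and set 2 controls were closer, at 5.60 ± 1.06 and 8.74 ± 2.97 CPM.

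MpPOD104 (Mp5g13820) and MpPOD105 (Mp5g13830) had 0 counts in all Mpez1-1 libraries. MpPOD104 summed to 25 counts in set 1 controls, so it was at least 6.15-fold lower in Mpez1-1 against a floor of 3 counts over the group. Bounds of this kind take the counts of the higher group as exact and leave out their counting error. In set 2 it summed to 139 counts in Mpez1-2 and 112 in controls. MpPOD105 summed to 14 counts in set 1 controls, at least 3.44-fold lower in Mpez1-1 by the same kind of bound. In set 2 MpPOD105 summed to 60 counts in Mpez1-2 and 105 in controls. The call for the difference was lost for MpPOD105 in 9 of 12 fits without 1 library, at -4.18 to -4.60 on the log2 scale.

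MpPOD74 differed in another way. It had 37, 63 and 23 counts in Mpez1-2 libraries, against 0 in all set 2 controls. That was at least 45.6-fold higher against the same floor, with the Mpez1-2 counts taken as exact. In set 1 it had 2, 0 and 0 counts in Mpez1-1 libraries, against 6, 4 and 3 in controls. MpPOD74 passed the count filter through its Mpez1-2 libraries alone and was too low to test in set 1, so its call for the difference is not read as support for one. Proteins and transcripts of the family were not compared here, so reads shared between near-identical peroxidase genes remain possible for each of these counts.

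**Figure D3:**
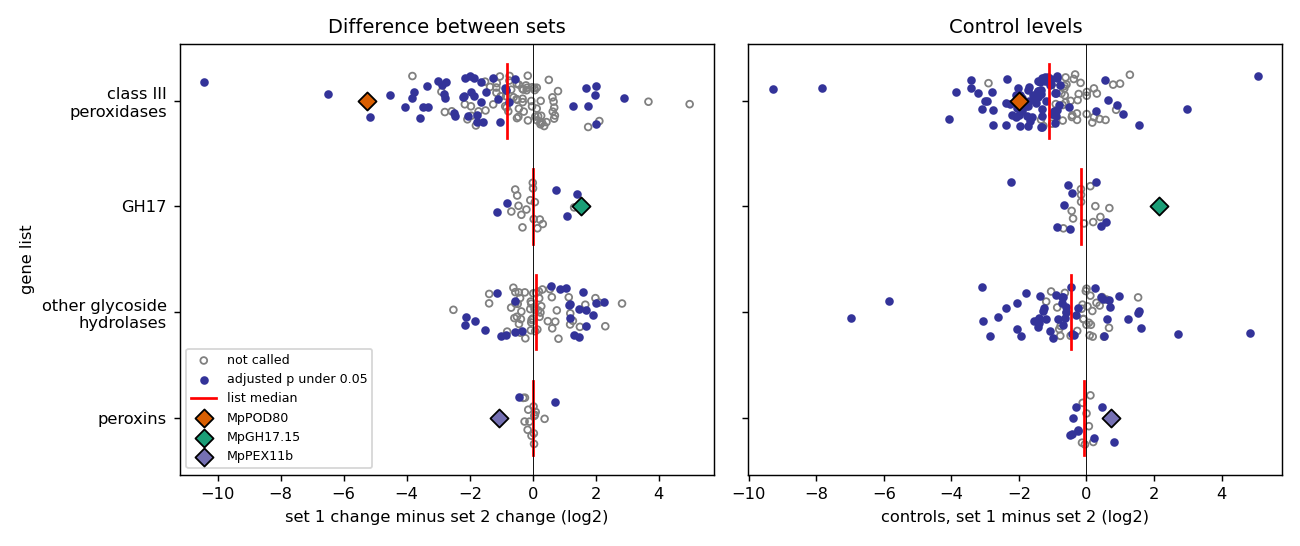
Log2 differences of the tested genes of 4 lists (rows), for the difference between sets and for the controls; filled points passed an adjusted p of 0.05, red lines are list medians without the named genes, and diamonds are MpPOD80, MpGH17.15 and MpPEX11b. Peroxidases lie to the left in both panels (medians -0.81 and -1.11), the other lists near 0 or between.

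GH17 genes other than MpGH17.15 showed no such lean for the difference. Of 24, 21 were tested for the difference between sets, and 3 were higher and 2 lower (23.8% called, near the 23.0% of all genes). The median difference was 0.00. Within set 1, 8 of 20 rose and 3 fell (55.0% called, against 50.6% of all genes). Within set 2, 10 of 21 rose and 7 fell (81.0% called, against 37.8%). In set 1 against set 2 controls 3 of 21 were higher and 6 lower (42.9% called, against 55.0%), with a median of -0.16. MpGH17.15 itself, at 2.16 between controls, was thus away from the middle of its family.

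Opposite changes by set, as in MpGH17.15, were seen in MpGH17.16, which rose in Mpez1-1 and fell in Mpez1-2. Its level was 195 ± 21.0 CPM in Mpez1-1 and 142 ± 4.23 CPM in set 1 controls, a log2 fold change of 0.46 (edgeR adjusted p = 0.00593). In set 2 it was 135 ± 7.20 CPM in Mpez1-2 and 208 ± 18.3 CPM in controls, a log2 fold change of -0.58 (edgeR adjusted p = 1.83e-05). The difference was 1.09 (edgeR adjusted p = 0.000165), and unlike MpGH17.15 the gene was lower in set 1 controls than in set 2 controls, by -0.55.

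The other GH17 genes called for the difference and named here went different ways. MpGH17.21 had 21.9 ± 1.47 CPM in Mpez1-1 and 21.3 ± 1.5 CPM in set 1 controls, and rose to 35.4 ± 3.52 CPM in Mpez1-2, against 15.7 ± 1.49 CPM in set 2 controls (difference -1.13, edgeR adjusted p = 0.000307). MpGH17.14 fell in both sets, by 1.32 in set 1 and by 0.46 in set 2 on the log2 scale (difference -0.82, edgeR adjusted p = 0.00271). MpGH17.3 rose in both, by 2.04 and 0.68 (difference 1.40, edgeR adjusted p = 0.0178). The call for MpGH17.3 was lost without set 1 control replicate 3, at 1.12, and without Mpez1-1 replicate 2, at 1.18. Its set 2 call was lost without Mpez1-2 replicate 1, at 0.62.

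Among 81 tested glycoside hydrolase genes of other families, 15 were higher and 10 lower for the difference (30.9% called, against 23.0%). The median was 0.10. Between controls 14 were higher and 36 lower in set 1 (61.7% called, against 55.0%). The median was -0.46 against -0.03 over all genes, the direction also seen for peroxidases. Within set 1, 33 of 74 rose and 17 fell (67.6% called, against 50.6%), and within set 2 27 of 80 rose and 19 fell (57.5% called, against 37.8%). MpGH19.13, of a chitinase family, rose to 187 ± 59.9 CPM in Mpez1-1, against 5.52 ± 1.34 CPM in set 1 controls. In set 2 it rose to 89.2 ± 2.84 CPM in Mpez1-2, against 12.5 ± 1.45 CPM in controls (difference 2.26, edgeR adjusted p = 0.000723). MpGH16.7 had 271 ± 62.5 CPM in Mpez1-1 and 82.5 ± 33.6 CPM in set 1 controls, and 22.7 ± 1.39 CPM in Mpez1-2 and 27.8 ± 8.27 CPM in set 2 controls. Its difference was 2.01 (edgeR adjusted p = 0.00777), and the call held in all 12 fits without 1 library.

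MpGH16.26 fell in both sets, by 2.86 in set 1 and by 0.71 in set 2 (difference -2.11, edgeR adjusted p = 0.00717). Its counts summed to 5 in Mpez1-1 and 52 in set 1 controls, and to 261 in Mpez1-2 and 488 in set 2 controls, the same order of groups as for MpPOD80. MpGH16.30 summed to 18 counts in Mpez1-1 and 33 in set 1 controls, and to 227 in Mpez1-2 and 75 in set 2 controls. Its difference of -2.14 (edgeR adjusted p = 0.0318) lost the call in 6 of 12 fits without 1 library.

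Peroxins, the proteins that build peroxisomes and import their enzymes, were examined beside MpPEX11b. All 16 others were tested. For the difference 1 was higher and 1 lower (12.5% called, against 23.0%), with a median of -0.01. Within set 1, 2 rose and 5 fell (43.8% called, against 50.6%), and within set 2, 1 rose and 2 fell (18.8% called, against 37.8%). Without Mpez1-1 replicate 1, Mpez1-1 replicate 2 or set 1 control replicate 2, 1 rose and 3 fell in set 1. For the difference, the lower call was lost in 5 of 12 fits without 1 library. Between controls 3 were higher and 6 lower in set 1 (56.2% called, near the 55.0% of all genes).

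The gene listed as MpPEX11, another member of the PEX11 family, had a smaller change of the same kind as MpPEX11b. It fell to 119.5 ± 6.41 CPM in Mpez1-1, against 167 ± 21.6 CPM in set 1 controls, a log2 fold change of -0.48 (edgeR adjusted p = 0.00797). In set 2 it had 148 ± 5.13 CPM in Mpez1-2 and 154 ± 1.90 CPM in controls, at -0.01 (edgeR adjusted p = 0.921). The difference of -0.42 (edgeR adjusted p = 0.0276) lost the call in 5 of 12 fits without 1 library, at -0.39 to -0.43.

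MpPEX11a did not follow. It rose by 0.40 in set 1 (edgeR adjusted p = 0.0256) and by 0.42 in set 2 (edgeR adjusted p = 0.0137), with a difference of 0.02 (edgeR adjusted p = 0.946). The set 1 call for MpPEX11a was lost in 4 of 6 fits without 1 library and the set 2 call without Mpez1-2 replicate 3. MpPEX6, named for an ATPase that recycles the import receptor, had 27.7 ± 0.801 CPM in Mpez1-1 and 19.1 ± 2.98 CPM in set 1 controls. In set 2 MpPEX6 had 22.9 ± 1.61 CPM in Mpez1-2 and 25.5 ± 1.85 CPM in controls, and its difference was 0.69 (edgeR adjusted p = 0.00771). MpPEX12 fell in both sets, by 0.52 and 0.54, while MpPEX5, the import receptor gene, fell in set 2 by 0.31 and changed by -0.26 in set 1 (edgeR adjusted p = 0.0962).

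Genes on either side were read from the gene order of the reference, 3 on each side of each gene. Of these 18 neighbours, 16 were tested for the difference, and 2 were higher and 4 lower (37.5% called, against 23.0% of all genes). The number is small, and some of these genes passed the count filter only through groups where they are high. The share within sets was 76.9% of 13 in set 1 and 31.2% of 16 in set 2, against backgrounds of 50.6% and 37.8%. Of the 10 set 1 calls, those of Mp5g06890, Mp6g00340 and MpTRIHELIX5 were each lost in 4 of 6 fits without 1 library, and that of Mp1g26700 in 1 of 6. The set 1 call of Mp6g00340 was also lost with DESeq2, with the replicate block and with both other scalings.

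MpPOD80 lies beside MpPOD81, and MpPOD79 and the O-methyltransferase-type genes MpOMT18 and MpOMT19 lie on its other side. MpPOD81 had 2, 1 and 0 counts in Mpez1-1 libraries, against 5, 10 and 11 in set 1 controls, and 21, 22 and 28 in Mpez1-2 libraries, against 20, 24 and 14 in set 2 controls. It was too low to test in set 1, and its pooled ratio there was 0.156 (95% counting interval 0.0303 to 0.510). The difference was -3.02 (edgeR adjusted p = 0.0143), in the direction of MpPOD80, for a gene that passed the count filter through set 2. No other neighbour of MpPOD80 was called for the difference by edgeR.

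MpOMT19 rose in both sets, to 15.1 ± 3.20 CPM in Mpez1-1, against 4.89 ± 0.504 CPM in set 1 controls, and to 20.8 ± 1.00 CPM in Mpez1-2, against 9.45 ± 1.61 CPM in set 2 controls. MpOMT18 also rose in both, with 45 counts in Mpez1-1 and 3 in set 1 controls, and 59 in Mpez1-2 and 11 in set 2 controls. MpPOD79 summed to 87 counts in Mpez1-2 and 16 in set 2 controls (log2 fold change 2.61, edgeR adjusted p = 0.000607), and to 9 in Mpez1-1 and 1 in set 1 controls, too few to test. Within set 1, 4 of 4 tested neighbours of MpPOD80 rose, where 26.5% of all genes did. Within set 2, 4 of 6 rose, where 20.4% of all genes did. MpOMT18 in both sets and MpPOD79 in set 2 passed the count filter through the double mutants alone, where they are high. MpPOD81 was too low to test in set 1. These counts thus describe the genes that passed the filter and not the neighbourhood. The set 1 call of Mp5g06890 had the losses given above. MpPOD80 itself was lower in both double mutants.

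Beside MpGH17.15, the unnamed gene Mp6g00390, 3 places away, had the same order of groups. Its counts were 7005, 8013 and 7142 in Mpez1-1 libraries, against 5780, 6935 and 6149 in set 1 controls, and 414, 511 and 501 in Mpez1-2 libraries, against 876, 661 and 660 in set 2 controls. Scaled, it was higher in Mpez1-1 than in its controls (log2 fold change 0.67, edgeR adjusted p = 0.0027) and lower in Mpez1-2 (-0.42, edgeR adjusted p = 0.0045). The difference was 1.14 (edgeR adjusted p = 0.000473). Between controls Mp6g00390 was 9.42-fold higher in set 1 (edgeR adjusted p = 3.46e-10).

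The genes between them, Mp6g00370 and Mp6g00380, were too low to test. Mp6g00370 summed to 4 counts in Mpez1-1 and 8 in set 1 controls, and to 0 in Mpez1-2 and 2 in set 2 controls. Mp6g00380 summed to 21 counts in Mpez1-1 and 24 in set 1 controls, and to 19 in Mpez1-2 and 17 in set 2 controls. Mp6g00350, next on the other side, had 58.8 ± 4.53 CPM in Mpez1-1 and 63.6 ± 1.08 CPM in set 1 controls, and 54.2 ± 3.59 CPM in Mpez1-2 and 59.5 ± 2.73 CPM in set 2 controls. Its difference of 0.02 had an edgeR adjusted p of 0.93. Mp6g00330 rose in Mpez1-1 by 0.54 and had a difference of 0.76 (edgeR adjusted p = 0.00467).

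Around MpPEX11b, 3 of 6 neighbours were lower for the difference and none was higher by edgeR. Of all genes 10.7% were lower and 12.3% higher, and not all 3 calls held without 1 library. Mp1g26730 fell to 83.2 ± 15.9 CPM in Mpez1-1, against 152 ± 11.6 CPM in set 1 controls, and had 98.7 ± 5.06 CPM in Mpez1-2 and 107 ± 6.11 CPM in set 2 controls (difference -0.76, edgeR adjusted p = 0.00445). Mp1g26700 had a difference of -0.61 (edgeR adjusted p = 0.0255), lost without set 2 control replicate 3, at -0.59, and without Mpez1-2 replicate 1, at -0.56. MpTRIHELIX5, of a transcription factor family, had a difference of -0.37 (edgeR adjusted p = 0.0328), lost in 3 of 12 fits without 1 library and with the replicate number as a block. All 3 were also higher in set 1 than in set 2 controls, Mp1g26730 by 0.52, Mp1g26700 by 0.49 and MpTRIHELIX5 by 1.32, against 0.72 for MpPEX11b. Mp1g26720, next to MpPEX11b, was lower in set 1 controls, by -0.41 (edgeR adjusted p = 0.0317), and had a difference of -0.02 (edgeR adjusted p = 0.978).

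**Figure D4:**
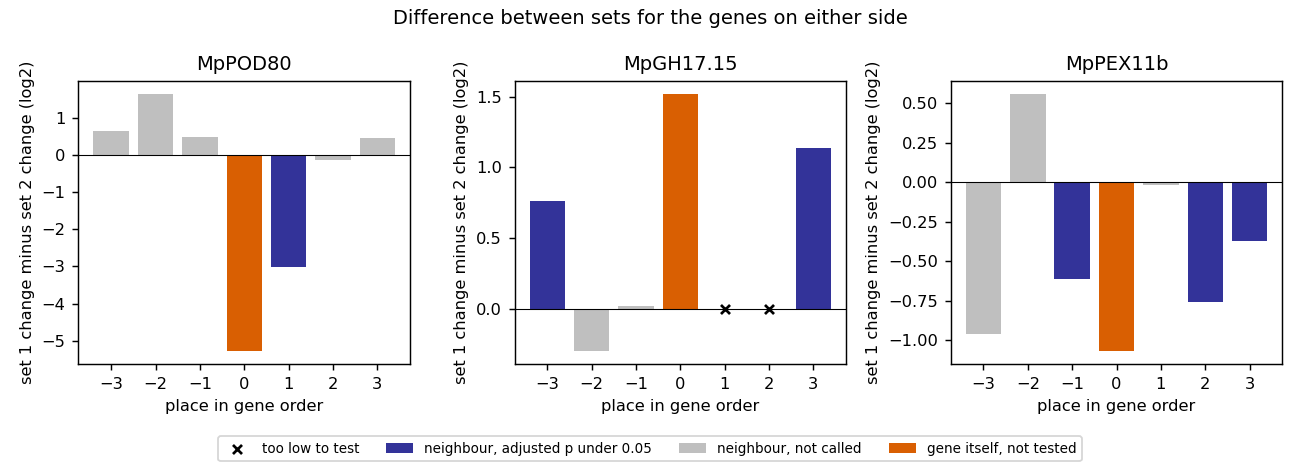
Difference between sets (log2) for MpPOD80, MpGH17.15 and MpPEX11b at place 0 and for the 3 genes on either side in the reference's gene order; blue bars passed an adjusted p of 0.05. MpPOD81 (-3.02), Mp6g00390 (1.14) and Mp1g26730 (-0.76) go the way of the gene they neighbour, but MpPOD81 passed the count filter through set 2. Neighbours that were not called lie on both sides, among them MpOMT18 (1.64), Mp6g00340 (-0.30) and Mp1g26690 (0.56), which go the other way.

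The genes most like each of the 3 were taken by Pearson r of log2 CPM over the 12 libraries, as a description with no p-value. MpPOD80 was most like Mp7g07070 (r = 0.994), Mp2g10340 (0.993), Mp5g16540 (0.991), the polyphenol oxidase gene MpPPO72 (0.990) and MpLEA-like54 (0.990). Mp7g07070 averaged 17 and 63.7 CPM in Mpez1-1 and set 1 controls, and 94.6 and 127 CPM in Mpez1-2 and set 2 controls. MpLEA-like54 averaged 1.79 and 12.8 CPM in the same groups of set 1 and 22.4 and 34.5 CPM in those of set 2. None of the 5 was as close to absence in Mpez1-1 as MpPOD80.

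MpGH17.15 was most like Mp1g00880 (0.996), Mp7g17580 (0.995), MpCSLD10 (0.994), Mp5g07500 (0.994) and MpBHLH2 (0.994). MpCSLD10 is named for the cellulose synthase-like D family and MpBHLH2 for the bHLH transcription factors. MpBHLH2 averaged 333 and 305 CPM in Mpez1-1 and set 1 controls, and 2.73 and 10.2 CPM in Mpez1-2 and set 2 controls, so it had the same order of groups over a much wider range. MpCSLD10 averaged 276 and 234 CPM in those groups of set 1 and 83.1 and 117 CPM in those of set 2.

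MpPEX11b was most like Mp4g17860 (0.987), Mp5g02750 (0.984), Mp6g08610 (0.974), Mp2g06690 (0.972) and Mp8g02380 (0.972). None of the 5 has a symbol in the reference. Mp4g17860 averaged 46.4 and 90.5 CPM in Mpez1-1 and set 1 controls, and 55.3 and 52.6 CPM in Mpez1-2 and set 2 controls. An r of at least 0.9 was reached by 903 genes with MpPOD80 and 1035 with MpGH17.15, but by 89 with MpPEX11b.

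**Figure D5:**
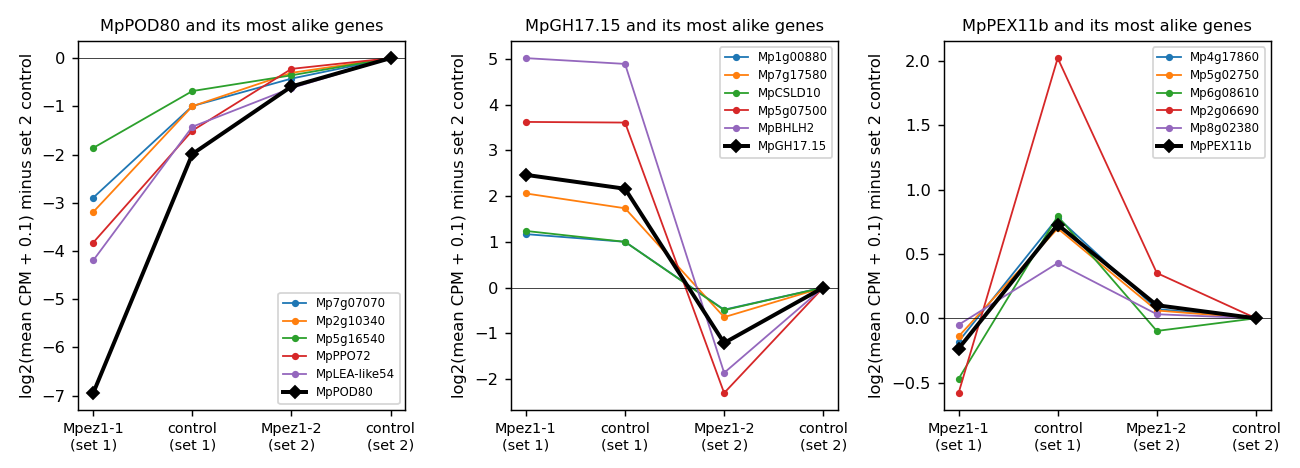
Mean level of each gene by group, as log2(mean CPM + 0.1) minus its set 2 control value, for the 3 genes (black diamonds) and the 5 genes most like each; lines only join the points of a gene. MpPOD80 drops furthest in Mpez1-1, and MpPEX11b and its like peak in set 1 controls.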

How the data were processed

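The authors deposited raw counts per gene and TE (transposable element) copy, 2 tables per library. Reads were handled with Trim Galore and STAR, per the submitters' processing notes. For the counter, multi-mapping and build, a statement was not given in the sources used here. Of each pair, the second table was taken as the opposite strand from its name and low gene counts. Symbols and gene order came from a reference of assembly MpTak2_v7.1, matched by identifier number (17624 of 19441 matched, 3088 with a symbol). No sequence was used here, and protein identity was not compared.

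After filterByExpr (minimum count 10, total 15) the deposited counts entered edgeR (version 4.0.16, R 4.3.3; glmQLFTest on a robust glmQLFit), with TMM scaling over genes and TE copies and Benjamini-Hochberg adjustment over genes. Within-set changes came from fits of 6 libraries, other comparisons from a fit of 12 that shares a dispersion per gene. CPM use the scaling of the 12. The procedure was run on simulated counts with known changes in far fewer genes than were called in these data. That run thus does not show how often calls are wrong here. Replicates were labelled biological and differed beyond counting noise (chi-square per degree of freedom 2.76 to 32.4, highest for Mpez1-1 replicate 3). Depth was 7019900 to 12098548 gene counts per library, and intervals cover counting error only.

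Members and lists were chosen with earlier results of these data known. Genes were named by rule: the 3 members, 5 most alike (log2 CPM, prior count 2) and 3 neighbours each side. The rule also took up to 4 called per list, the 10 smallest p-values for the difference, and the targeted genes. Peroxins beyond these, MpC1HDZ, MpSYP12B, MpRKD, MpR2R3-MYB1, MpBHLH20 and Mp5g05430 were added after their values were seen. Callose synthase, laccase and RBOH lists matched no symbol, the peroxisome enzyme list was dropped for ambiguous symbols, and MpGH3A-type auxin genes were left out of the hydrolases. Alternatives were RLE scaling, no filter, scaling over genes only, DESeq2 1.42.0, a replicate block, both strands summed, and leaving out each replicate. List counts without each library or over genes tested in all 5 comparisons, and the marker sum without MpC1HDZ, were added after the values were seen.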

Additional observations from a re-analysis of the deposited data

Results flagged for a closer look

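Changes that differ between sets. MpGH17.15 moved up in every Mpez1-1 library and down in every Mpez1-2 library against its own controls (difference 1.52 on the log2 scale). It was chosen for this, so the difference was not tested. The other genes listed were named by rule and passed edgeR's test of the difference itself, with the log2 difference given for each.

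Among peroxidases these were MpPOD74 (-10.43), MpPOD104 (-6.49), MpPOD90 (-5.17), MpPOD105 (-4.52) and MpPOD81 (-3.02). The fitted sizes for MpPOD74, MpPOD104 and MpPOD105 depend on the prior count, since a group had 0 counts. These 3 and MpPOD81 were too low to test in set 1 and entered the test of the difference through groups where they are higher. Among GH17 genes they were MpGH17.3 (1.40), MpGH17.21 (-1.13), MpGH17.16 (1.09) and MpGH17.14 (-0.82). Of the other hydrolases MpGH19.13 (2.26), MpGH16.30 (-2.14), MpGH16.26 (-2.11) and MpGH16.7 (2.01) passed. Peroxins with a difference were MpPEX6 (0.69) and MpPEX11 (-0.42). Neighbours with a difference were Mp6g00390 (1.14), Mp6g00330 (0.76), Mp1g26730 (-0.76), Mp1g26700 (-0.61) and MpTRIHELIX5 (-0.37). Since 23.0% of all genes passed this test, such flags were common.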

How the results depend on the processing

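The 15 fold changes of the 3 genes kept their sign under every alternative run, in 234 refitted values, of which 219 moved by less than 1 SD between replicates. The 15 that moved more all came from leaving out 1 library. For MpPOD80 those fits gave -6.29 to -5.24 for the set 1 change, -5.72 to -4.67 for the difference and -7.72 to -6.67 between double mutants. Their lowest and highest values came from leaving out Mpez1-1 libraries, which had 1, 0 and 1 counts. For MpGH17.15 the difference ranged from 1.36 to 1.57. For MpPEX11b the difference ranged from -1.21 to -1.02 and the double mutant comparison from -0.47 to -0.30. The lowest values came without Mpez1-1 replicate 1, where the median of all genes was -0.097 for the difference and -0.114 between double mutants. The highest came without Mpez1-1 replicate 3, with medians of 0.003 and -0.024. The cause was not tested. Of the 5 genes most like MpPOD80, 3 remained with a prior count of 0.5, and all 5 did for MpGH17.15 and MpPEX11b.

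The number of called genes stayed within 1.5 times of the reported one. The lower calls for the difference did not, with 2332 without Mpez1-1 replicate 1 against 1419. With DESeq2 there were 6015 for set 1, 4032 for set 2 and 3233 for the difference, against 6395, 4815 and 3050. Same-numbered replicates deviated together weakly if at all (r = -0.003 to 0.097, against -0.13 to 0.107 for other pairs). In set 2 they had r of 0.039 to 0.069, above the -0.063 to 0.017 of its other pairs. Values this small do not settle whether the numbers pair the samples. With a replicate block 6444, 4935, 3078, 7286 and 8244 genes were called for set 1, set 2, the difference, the controls and the double mutants. MpPOD105 lost its call for the difference with the block (adjusted p = 0.061), and so did MpTRIHELIX5 (adjusted p = 0.0527). At this depth, genes at 0 counts can still be transcribed below the floor of 3 counts.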

Other observations

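The genes with the smallest p-values for the difference between sets were mostly without a symbol, and MpPOD80 was the only 1 of the first 10 with a symbol. As chosen by these values they are a description. Of the other 9, 8 had a higher change in set 1 than in set 2. Mp2g00040 averaged 173 ± 29.3 CPM in Mpez1-1 and 16.1 ± 1.90 CPM in set 1 controls, and 7.64 ± 0.785 CPM in Mpez1-2 and 7.17 ± 1.51 CPM in set 2 controls. Mp2g18480 averaged 564 ± 66.9 CPM in Mpez1-1 and 139.7 ± 1.30 CPM in set 1 controls, and 48.8 ± 4.05 CPM in Mpez1-2 and 38.3 ± 2.61 CPM in set 2 controls. Mp8g13280 was the exception, with 11.8 ± 0.786 CPM in Mpez1-1 and 10.9 ± 0.598 CPM in set 1 controls, and 26.7 ± 0.434 CPM in Mpez1-2 and 3.59 ± 0.841 CPM in set 2 controls. MpPOD80 stood apart from these in being lower in both double mutants.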
